A study of Mus musculus with 5 samples.

Results

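S100a8, S100a9, Lyz2 and Mcpt8 are transcripts that mark neutrophils, monocytes and basophils, and they were followed here in RNA of sorted mouse natural killer (NK) cells. The 4 genes were chosen by symbol, from among the 13004 genes of the deposited table, because their RPKM values in these libraries were already known to be higher in MycKO and to differ between the MycKO libraries. RPKM is the number of reads scaled to transcript length and to library size. Their own levels, and the differences that follow from them, are therefore a description and carry no test. All 4 passed the filter on low values (at least 1 RPKM in at least 2 libraries), and Mcpt8 passed it through the MycKO libraries alone.

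The series holds 2 MycKO libraries, replicates 5 and 6, of genotype Mycdelta/delta/Ncr1Cre, and 3 control libraries, replicates 1, 2 and 3, of genotype Mycf/f. All came from the spleens of 8-week C57BL/6 mice, and cells were sorted as live, CD3-negative and positive for NK1.1 and DX5. Cre is named for MycKO alone, so effects of Cre and of Myc deletion cannot be told apart, and Ncr1 drives it in NK cells and related innate lymphocytes. The labels do not say whether libraries came from separate mice, so the spread behind each p-value is that of libraries and may be technical. The reads in listed genes came to 5451728 and 13337084 in MycKO 5 and 6, against 14290690 to 17610826 in the controls.

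S100a8 and S100a9 encode small calcium-binding proteins that pair to form calprotectin, which makes up much of the protein in the cytosol of neutrophils and is also found in monocytes. Lyz2 encodes lysozyme M, an enzyme that cleaves bacterial cell walls, made by monocytes, macrophages and neutrophils. Mcpt8 encodes a granule serine protease that in the mouse is used as a marker of basophils. Mouse basophils carry DX5, an antigen of the sort, but not NK1.1, while neutrophils and monocytes typically carry neither at a high level.

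In the GENCODE vM21 annotation of mm10, S100a8 (Entrez 20201) lies on chromosome 3, 90668978 to 90670035, on the plus strand, and S100a9 (20202) at 90692632 to 90695721 on the minus strand, 22596 bases away. Lyz2 (17105) lies on chromosome 10, 117277331 to 117282321, minus strand, beside its paralogue Lyz1. Mcpt8 (17231) lies on chromosome 14, 56082166 to 56085273, minus strand, within the cluster of granule protease genes that also holds Cma1, Ctsg and Gzmb. All 4 are protein-coding. The 250 bases before each RefSeq start (GRCm38.p6) are shown to set the letters before the calprotectin genes beside those before Lyz2 and Mcpt8. For S100a8, Lyz2 and Mcpt8 the RefSeq start lies inside the GENCODE span, so part of the window overlaps the annotated gene. For S100a9 the 2 starts are the same. Capitals mark matches on either strand to motifs of myeloid regulators and to a TATA box, from the 5′ end to the base before the start.
S100a8, chr3:90668821-90669070, plus strand: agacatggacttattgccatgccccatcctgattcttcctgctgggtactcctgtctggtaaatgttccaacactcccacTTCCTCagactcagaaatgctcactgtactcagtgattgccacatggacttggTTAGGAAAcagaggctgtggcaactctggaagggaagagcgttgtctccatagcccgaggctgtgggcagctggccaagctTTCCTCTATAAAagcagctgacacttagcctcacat
S100a9, chr3:90695722-90695971, minus strand: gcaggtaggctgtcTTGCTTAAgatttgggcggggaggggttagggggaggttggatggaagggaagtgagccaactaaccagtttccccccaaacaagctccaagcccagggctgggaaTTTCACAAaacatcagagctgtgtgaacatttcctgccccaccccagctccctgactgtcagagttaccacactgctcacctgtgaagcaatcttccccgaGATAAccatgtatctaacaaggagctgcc
Lyz2, chr10:117282273-117282522, minus strand: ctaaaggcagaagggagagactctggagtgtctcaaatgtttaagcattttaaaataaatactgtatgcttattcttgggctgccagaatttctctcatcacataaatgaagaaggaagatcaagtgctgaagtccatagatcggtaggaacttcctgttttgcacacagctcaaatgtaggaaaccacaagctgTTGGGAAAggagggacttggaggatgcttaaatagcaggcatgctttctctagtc
Mcpt8, chr14:56085198-56085447, minus strand: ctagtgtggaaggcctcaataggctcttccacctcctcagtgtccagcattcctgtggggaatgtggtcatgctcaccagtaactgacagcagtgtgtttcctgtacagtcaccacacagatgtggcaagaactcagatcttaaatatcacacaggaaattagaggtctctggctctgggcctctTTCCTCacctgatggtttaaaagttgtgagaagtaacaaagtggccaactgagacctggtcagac

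The motif of C/EBP factors, which drive granulocyte and monocyte genes, was searched as TTNNGNAA on both strands, where N is any base. It matched once in S100a8, 117 to 110 bases before the start, at 2 places in S100a9 and once in Lyz2, 55 to 48 bases before the start, with no match in the Mcpt8 window. Of 32851 promoter windows of the same length, 36.8% held it, so a match is common. The core of the myeloid factor PU.1 (GAGGAA, or TTCCTC on the other strand) matched at 2 places in S100a8 and once in Mcpt8, and 23.3% of windows held it. The GATA core (GATAA) matched once, in S100a9, and was in 22.6% of windows. A TATA box (TATAAA) stood 30 to 25 bases before the start of S100a8, next to a PU.1 match with no overlap, and was in 12.4% of windows. No motif was common to all 4 windows. These matches describe the letters and are no evidence of binding.

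The calprotectin transcripts were higher in both MycKO libraries than in any control, with MycKO 6 at 3.11 times the highest control for S100a8 and 2.30 times for S100a9, and MycKO 5 stood above MycKO 6. S100a8 was at 269 and 107 RPKM in MycKO 5 and 6, against 34.4, 19.4 and 8.57 RPKM in controls 1, 2 and 3. The groups did not overlap, and the exact 95% Poisson interval, which covers counting error only here and throughout, was 247 to 292 RPKM in MycKO 5 and 98.2 to 116 RPKM in MycKO 6. Mean S100a8 was 188 ± 115 RPKM (SD, n = 2) in MycKO and 20.8 ± 13 RPKM (SD, n = 3) in controls, a difference of 3.16 on the log2(RPKM + 1) scale. S100a9 was at 223 and 88.1 RPKM in MycKO 5 and 6, against 21.0, 38.4 and 13.2 RPKM in controls 1, 2 and 3. Again both MycKO libraries lay above all controls, with means of 155 ± 95.2 RPKM (SD, n = 2) in MycKO and 24.2 ± 12.9 RPKM (SD, n = 3) in controls. The log2 difference of S100a9 was 2.61.

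**Figure D1:**
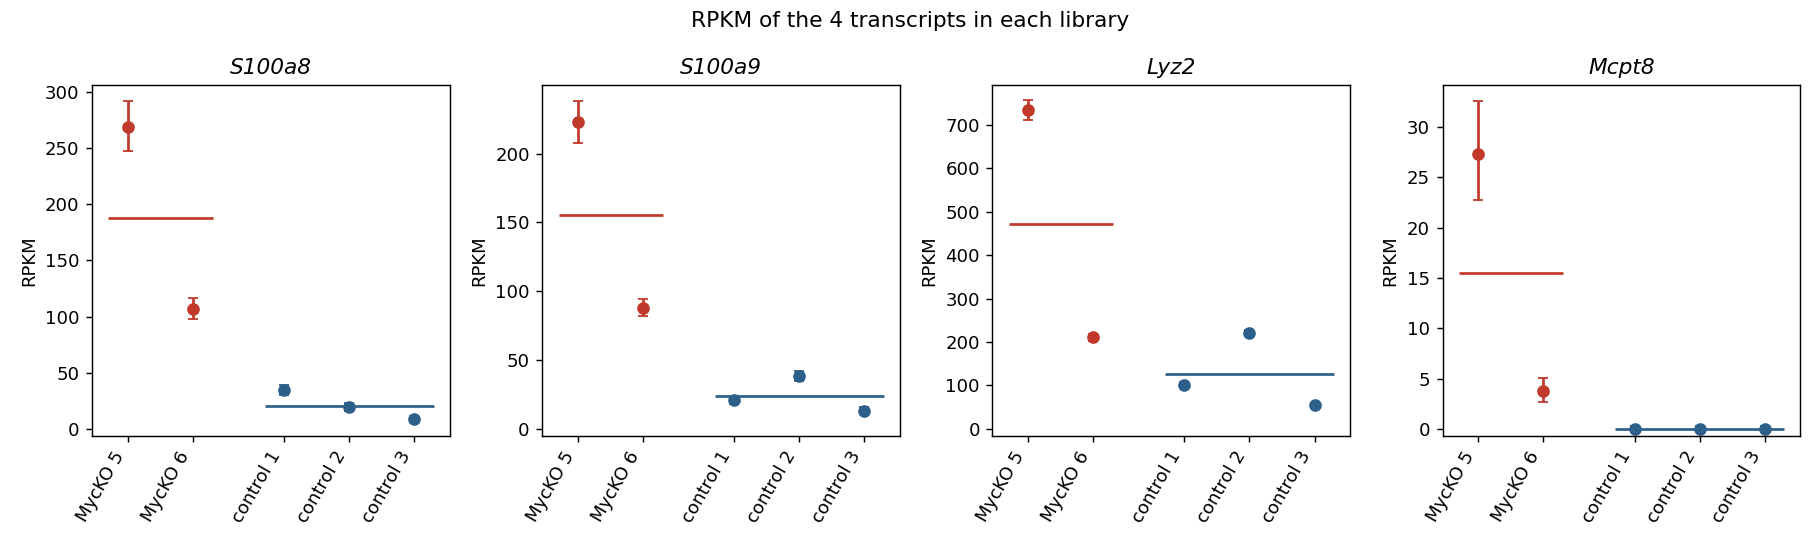
RPKM of S100a8, S100a9, Lyz2 and Mcpt8 in each library, MycKO in red and control in blue, on a linear axis with its own range per gene; points are libraries, bars are exact 95% Poisson intervals of the reads and horizontal lines are group means. MycKO 5 is the highest library for each gene, MycKO 6 lies above all controls for S100a8, S100a9 and Mcpt8, and for Lyz2 it lies at 210.5 RPKM, under the 219.7 RPKM of control 2.

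Lyz2 was the most abundant of the 4, and its groups overlapped. It was at 734 and 210.5 RPKM in MycKO 5 and 6, against 102, 219.7 and 55.1 RPKM in controls 1, 2 and 3. MycKO 6 thus stood at 0.958 times control 2, although it was 1.68 times the control mean, and MycKO 5 was 5.84 times that mean. Mean Lyz2 was 472 ± 369.9 RPKM (SD, n = 2) in MycKO and 126 ± 84.8 RPKM (SD, n = 3) in controls, with a log2 difference of 1.86. Without MycKO 5 the difference was 0.96, and without MycKO 6 it was 2.76.

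Mcpt8 was detected in MycKO alone. It was at 27.3 and 3.76 RPKM in MycKO 5 and 6, from 125 and 42 reads, and at 0 reads in each of the 3 controls. A limit of 3 reads for a count of 0 corresponds to 0.250 RPKM in control 3, the shallowest control. As point values, MycKO 5 was at 109 times and MycKO 6 at 15.0 times that limit. These multiples leave out the counting error of MycKO and are not lower bounds. The exact Poisson intervals were 22.8 to 32.6 RPKM in MycKO 5 and 2.71 to 5.08 RPKM in MycKO 6. For the 0 reads of control 3 the upper end of that interval was 0.308 RPKM. The mean was 15.5 ± 16.7 RPKM (SD, n = 2) in MycKO, an SD larger than the mean. The difference of 3.54 on the log2(RPKM + 1) scale depends on the pseudocount, and the log2 ratio of 10.37 in the authors' deposited table is set against a control mean of 0, so neither is a bound. Cma1, the chymase gene of the same cluster, went the other way, at 76.0 and 125 RPKM in MycKO 5 and 6 against 198 to 219 RPKM in controls. The granzyme gene Gzmb was at 458 and 559.8 RPKM in MycKO and 347 to 474 RPKM in controls, and Gzma at 4699 and 5620 RPKM in MycKO and 6584 to 7251 RPKM in controls. Ctsg, of the same cluster, was like Mcpt8 detected in MycKO alone. It was at 2.20 and 1.13 RPKM in MycKO 5 and 6, from only 12 and 15 reads, and at 0 reads in each control. No 51-base window of the Mcpt8 transcript, the length of the reads, occurred in a transcript of another gene.

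Both MycKO libraries lay above all 3 controls for 3 of the 4 genes, against 18.8% of the 11190 genes that passed the filter, and since these values chose the genes the count is given for scale only. In sum the 4 transcripts took 0.106% and 0.0328% of the reads in MycKO 5 and 6, against 0.0136%, 0.0266% and 0.00706% in controls 1, 2 and 3. In bulk RNA, a change in the number of cells of a type and a change in RNA per cell cannot be told apart.

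The spread between the MycKO libraries was unequal among the 4 genes, and this is the contrast that they were picked to show. The ratio of MycKO 5 to MycKO 6 was 2.52 for S100a8 (exact 95% interval of the reads, 2.24 to 2.83) and 2.53 for S100a9 (2.29 to 2.79). It was 3.49 for Lyz2 (3.33 to 3.65) and 7.28 for Mcpt8 (5.10 to 10.6). The calprotectin pair could not be told apart by counting error, the interval of Lyz2 lay above both, and that of Mcpt8 lay above all others. With 1 library each, these intervals compare libraries and not mice. On the log2(RPKM + 1) scale the difference of MycKO 5 minus MycKO 6 was 1.32 for S100a8, 1.33 for S100a9, 1.80 for Lyz2 and 2.57 for Mcpt8. A larger difference was found in 2.15% of the 11190 genes for S100a8, 2.12% for S100a9, 0.795% for Lyz2 and 0.188% for Mcpt8.

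A spread of this size also occurred among controls. The highest control was 4.02 times the lowest for S100a8, 2.92 times for S100a9 and 3.99 times for Lyz2, in each case a larger ratio than that between the MycKO libraries, though over 3 libraries and not 2. Control 3 was the lowest for all 3 genes. Control 1 was the highest for S100a8 and control 2 for S100a9 and Lyz2, so the controls did not keep 1 order over the myeloid transcripts. Mcpt8 alone had its whole spread in MycKO.

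The balance within the calprotectin pair differed between controls and not between the MycKO libraries. The RPKM of S100a8 over that of S100a9 was 1.21 in both MycKO 5 (exact 95% interval 1.08 to 1.34) and MycKO 6 (1.09 to 1.35). In controls it was 1.64 (1.35 to 1.99), 0.505 (0.414 to 0.614) and 0.651 (0.457 to 0.914) in controls 1, 2 and 3. The intervals of controls 2 and 3 lay below those of both MycKO libraries, while control 1 was higher with an interval that met that of MycKO 6. Their reads were 203 for S100a8 beside 217 for S100a9 in control 1, and 134 beside 464 in control 2. No 51-base window of either transcript occurred in another gene.

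**Figure D2:**
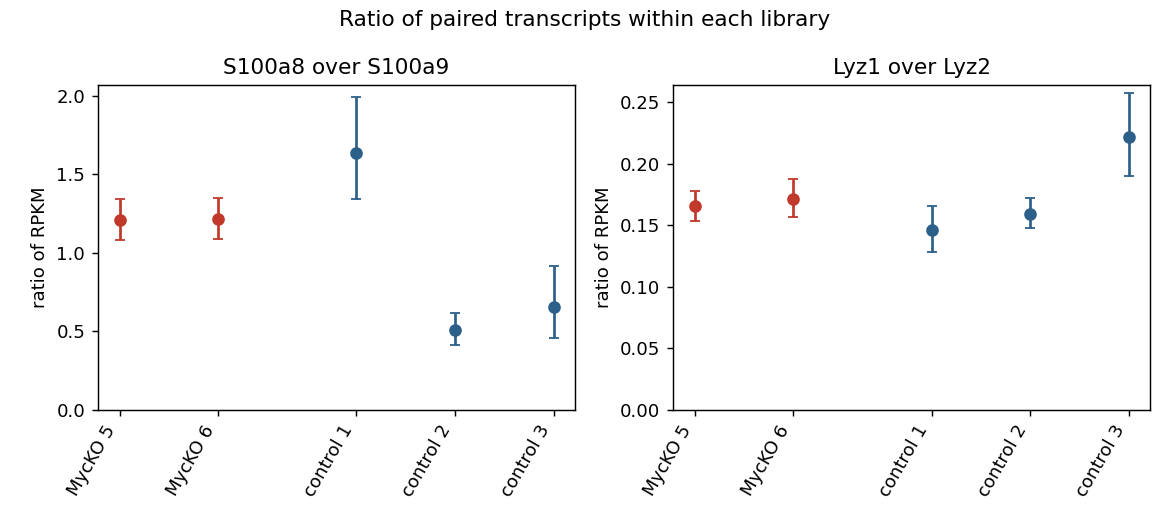
Ratio of the RPKM values of S100a8 over S100a9 (left) and Lyz1 over Lyz2 (right) in each library, MycKO in red and control in blue, with exact 95% intervals of the reads as bars. The calprotectin ratio is 1.21 in both MycKO libraries and ranges from 0.505 to 1.64 in controls, while the lysozyme ratio lies between 0.146 and 0.222 in all 5.

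Lyz1, the paralogue of Lyz2 known in the mouse mainly from Paneth cells of the gut, followed Lyz2 at a lower level. It was at 121 and 36.1 RPKM in MycKO 5 and 6, against 14.9, 35.0 and 12.2 RPKM in controls 1, 2 and 3. Its ratio of MycKO 5 to MycKO 6 was 3.36 (3.02 to 3.74), and Lyz1 over Lyz2 was 0.165 and 0.172 in MycKO 5 and 6 and 0.146, 0.159 and 0.222 in controls 1, 2 and 3. Of the 1266 51-base windows of the Lyz2 transcript, 187 (14.8%) also occurred in Lyz1 and none in any other gene. The sources do not say how reads of such windows were assigned, so levels of Lyz1 and Lyz2 are uncertain to that extent.

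Other genes of neutrophils were mostly higher in MycKO, and few passed the test. Of 40 genes in this list, 29 had a row and 26 passed the filter, of which 1 rose and none fell by limma's test (adjusted p under 0.05), against 1.24% of all genes tested that were called higher and 0.0983% called lower. In 14 of the 26 both MycKO libraries lay above all controls, against 18.8% of all genes tested. The median difference was 1.40 on the log2 scale, against 0.05 over all genes tested. Camp, which encodes the antimicrobial peptide cathelicidin, was at 15.3 and 13 RPKM in MycKO 5 and 6 against 0, 2.46 and 0 RPKM in controls 1, 2 and 3, a log2 difference of 3.32 (SE 0.57) with a limma adjusted p of 0.0438. It lost the call without every library except control 2, where the adjusted p was 0.00561, and limma-voom, a related test on reads, gave 0.251. The list's count was 5 without control 2 and 0 without control 1 or control 3. The authors' deposited table called 3 of the 26 as higher, against 3.09% of all genes tested. Camp was not among them, with an adjusted p of 0.243 in the authors' test. Camp also lost limma's call with median-of-ratios scaling (adjusted p = 0.0511), a pseudocount of 0.1 (0.176) and no filter (0.0561).

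Among the more abundant neutrophil genes, the granule gene Ngp was at 38.0 and 14.5 RPKM in MycKO 5 and 6 and at 0, 11.9 and 0.181 RPKM in controls 1, 2 and 3, so that control 2 came close to MycKO 6. The cytokine gene Il1b was at 26.8 and 11.0 RPKM in MycKO and 2.39 to 4.80 RPKM in controls, with a limma adjusted p of 0.0646. Slpi, an inhibitor of neutrophil elastase, was at 12.8 and 74.0 RPKM in MycKO 5 and 6, against 8.72 to 11.1 RPKM in controls, the opposite order of the MycKO libraries. Pglyrp1, a peptidoglycan-binding protein of neutrophils, was at 117 and 107 RPKM in MycKO and 86.0 to 119 RPKM in controls, and G0s2 at 15.9 and 13.9 RPKM in MycKO and 11.2 to 19.2 RPKM in controls, with the groups overlapping for both. The granule peroxidase gene Mpo, chosen after its values were seen, had 19 and 17 reads in MycKO 5 and 6. The granule protease gene Ctsg, named as a paralogue of Mcpt8, had 12 and 15 reads. Both had 0 reads in every control. Of the 29 neutrophil genes, 0 and 4 were at 0 in MycKO 5 and 6, against 9, 6 and 9 in controls 1, 2 and 3. Over all 13004 genes, 481 and 419 were at 0 in MycKO 5 and 6, against 794, 1104 and 693 in controls 1, 2 and 3. Fewer zeros in MycKO were thus not particular to neutrophil genes.

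Neutrophil genes also leaned towards MycKO 5. Of 26, 22 were higher in MycKO 5 than in MycKO 6, and 13 by at least 1 on the log2(RPKM + 1) scale, against 4.02% of all genes tested. The other direction held in 2 by at least 1, Slpi and Padi4, against 3.2% of all genes. The median difference of MycKO 5 minus MycKO 6 was 1.01, against 0.00 over all genes tested, and S100a8 and S100a9 lay somewhat above it. The receptor gene of the neutrophil growth factor G-CSF, Csf3r, was at 22.8 and 9.07 RPKM in MycKO 5 and 6 and 2.48 to 3.60 RPKM in controls, with a ratio of 2.51 (2.22 to 2.84) close to that of the calprotectin pair. Csf3r was singled out after its values were seen.

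Monocyte and macrophage genes gave the most calls. All 36 genes of the list had a row and 35 passed the filter, of which 14 rose and none fell by limma's test, against 1.24% and 0.0983% of all genes tested. In 27 of 35 both MycKO libraries lay above all controls, against 18.8% of all genes. The median difference was 1.84 on the log2 scale. The largest called rises were those of Sirpa, an inhibitory receptor of myeloid cells, Mrc1, the mannose receptor of macrophages, Adgre4, an adhesion receptor, Aif1, an actin-binding protein of macrophages, and Csf1r, the receptor of the macrophage growth factor. Sirpa was at 61.4 ± 3.85 RPKM (SD, n = 2) in MycKO and 10.9 ± 3.60 RPKM (SD, n = 3) in controls, a log2 difference of 2.43 (SE 0.24) with a limma adjusted p of 0.00781. Csf1r was at 87.6 ± 5.49 RPKM in MycKO and 19.1 ± 4.57 RPKM in controls, a log2 difference of 2.16 (adjusted p = 0.00776). Differences of Mrc1, Adgre4 and Aif1 were 2.29, 2.24 and 2.22. The count was 4 without control 1, control 3 or MycKO 5, 6 without MycKO 6 and 18 without control 2, and the authors' deposited table called 23 of the 35, all higher, against 3.09% of all genes tested.

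The monocyte and macrophage list did not share 1 pattern between the MycKO libraries. Of 35, 22 were higher in MycKO 5, against 5585 of all 11190 genes tested. By at least 1 on the log2 scale, 10 were higher and 4 were lower, against 4.02% and 3.2% of all genes, with a median of 0.48. Genes picked after their values were seen show both ends. F13a1, a clotting factor subunit made by monocytes, was at 16.2 and 2.08 RPKM in MycKO 5 and 6 and 0.623 to 3.18 RPKM in controls, a ratio of 7.79 (6.26 to 9.75). The chemokine gene Ccl9 had a ratio of 4.93 (4.09 to 5.97) and the fibronectin gene Fn1 one of 7.76 (6.66 to 9.06). In contrast, the macrophage gene Adgre1, which encodes F4/80, was at 40.9 and 41.3 RPKM in MycKO 5 and 6 and 7.20 to 12.2 RPKM in controls, a ratio of 0.990 (0.907 to 1.08). Csf1r had a ratio of 1.09 (1.04 to 1.15), and Marco, a scavenger receptor of macrophages, 0.302 (0.211 to 0.422). Lyz2, with its ratio of 3.49, lay between F13a1 and Csf1r.

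The most abundant genes of that list were not restricted to myeloid cells. Ccr2, a chemokine receptor that NK cells also express, was at 372 and 247 RPKM in MycKO 5 and 6 and 238 to 314 RPKM in controls. Ly6c2, also found on lymphocytes, was at 102 and 251 RPKM in MycKO and 93.1 to 457 RPKM in controls, so for both the groups overlapped. The protease gene Ctss (240 and 181 RPKM in MycKO, 70.4 to 113 RPKM in controls) and the perforin-like gene Mpeg1 (135 and 80.8 RPKM in MycKO, 18.3 to 34.4 RPKM in controls) passed limma's test, with adjusted p-values of 0.0431 and 0.0279. Ctss lost the call with median-of-ratios scaling (0.0537), a pseudocount of 0.1 (0.0637), no filter (0.0546) and without every library except control 2, and Mpeg1 lost it without control 1 (0.104), control 3 (0.0964) or MycKO 5 (0.146).

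**Figure D3:**
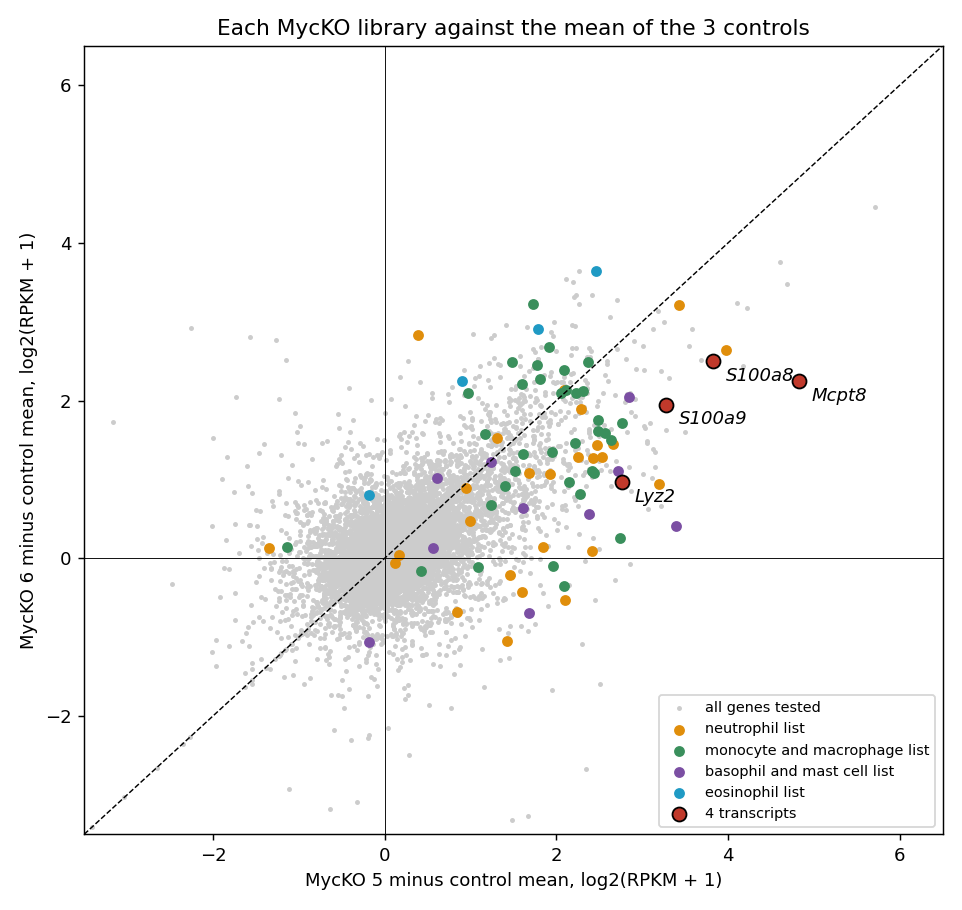
Each gene's difference from the control mean on the log2(RPKM + 1) scale in MycKO 5 (horizontal) and MycKO 6 (vertical); grey points are the 11190 genes tested, coloured points the listed genes, red points the 4 transcripts, and the dashed line marks equality of the MycKO libraries. All 4 transcripts lie below the line, Mcpt8 farthest with 2.57, and most neutrophil and basophil genes lie on the same side. Macrophage genes such as Adgre1 lie on the line and the tested eosinophil genes above it.

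Apart from Kit, the other listed genes of basophils and mast cells (Mcpt8 is not in the list) were under 13 RPKM in every library. Of 23 in the list, 14 had a row and 10 passed the filter. By limma's test 2 of the 10 rose and none fell, against 1.24% and 0.0983% of all genes tested. The MycKO libraries lay above all controls in 4 and below all controls in 1, against 18.8% and 10.4% of all genes tested. The 1 below was near the background share. The median difference was 1.18. The genes that rose were Aqp9, a water and glycerol channel (7.06 and 3.63 RPKM in MycKO, 0 to 0.404 RPKM in controls, limma adjusted p = 0.0409), and Kit, the stem cell factor receptor (31.4 and 31.1 RPKM in MycKO, 12.1 to 14.1 RPKM in controls, limma adjusted p = 0.0214). Kit also marks mast cells, progenitors and immature NK cells, and it was level between the MycKO libraries, unlike Mcpt8. Aqp9 lost the call in limma-voom (adjusted p = 0.195) and with a pseudocount of 0.1 (0.138). The count was 1 without control 2 and 0 without control 1 or control 3, where 3 genes had an unadjusted p under 0.05 by limma. Over all genes, 1194 of 11059 had one without control 1 and 1212 of 11029 without control 3. The authors' deposited table called 2 as higher, against 3.09% of all genes tested.

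Several basophil genes had large ratios of MycKO 5 to MycKO 6, as Mcpt8 did, while Kit was level. Prss34, a basophil granule protease, was at 12.8 and 0.739 RPKM in MycKO 5 and 6 and at 0, 1.26 and 0 RPKM in controls 1, 2 and 3, so only MycKO 5 stood apart. Its ratio of MycKO 5 to MycKO 6 was 17.3 (9.42 to 34.9), from 85 and 12 reads. Ms4a2, the beta chain of the IgE receptor, was at 8.67 and 0.860 RPKM in MycKO 5 and 6 and 1.83 to 2.43 RPKM in controls, so MycKO 6 lay below every control. The ratio of Ms4a2 was 10.1 (6.85 to 15.2). Others chosen after their values were seen were Gata2, a transcription factor of basophils and mast cells, with a ratio of 17.4 (10.7 to 29.8) although it did not pass the filter, Hdc, which makes histamine, with 4.89 (3.55 to 6.81), and Fcer1a, the alpha chain of the IgE receptor, with 4.75 (2.57 to 9.09). Fcer1a was at 5.89 and 1.24 RPKM in MycKO 5 and 6 and at 0, 0 and 0.136 RPKM in controls. Unlike Mcpt8, Gata2, Hdc and Ms4a2 had reads in all 3 controls.

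Across the 10 tested basophil and mast cell genes, 9 were higher in MycKO 5 than in MycKO 6, against 5585 of all 11190 genes, and 4 by at least 1 on the log2 scale, against 4.02% of all genes, with a median of 0.93. The exception was Il1rl1, the receptor of interleukin 33, at 1.01 and 1.66 RPKM in MycKO 5 and 6 and 0.172 to 0.404 RPKM in controls, a ratio of 0.611 (0.421 to 0.870). The interleukin 3 receptor gene Il3ra was at 8.28 and 4.03 RPKM in MycKO 5 and 6 and 8.53 to 11.2 RPKM in controls, below all controls in both. Slc18a2, a transporter that loads histamine into granules, was at 4.19 and 2.88 RPKM in MycKO and 1.66 to 4.30 RPKM in controls. Neither passed limma's test.

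**Figure D4:**
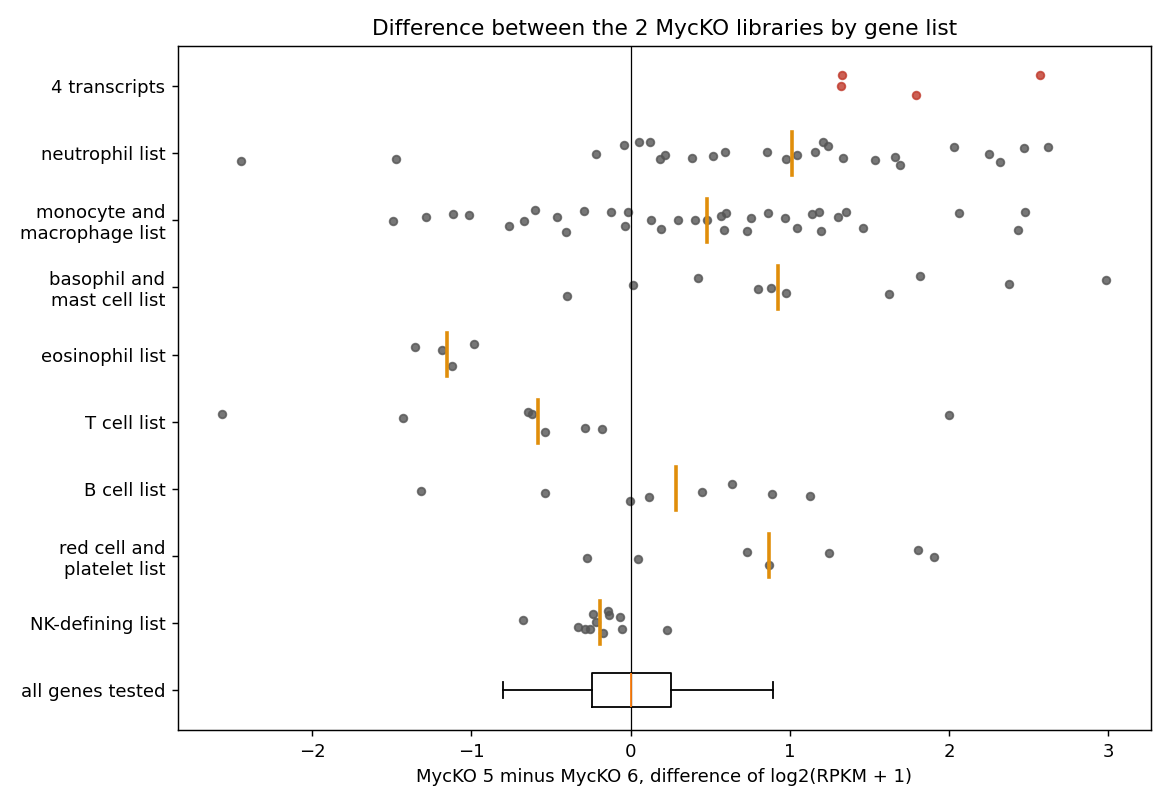
Difference of MycKO 5 minus MycKO 6 on the log2(RPKM + 1) scale; red points are the 4 transcripts, grey points the tested genes of each list with orange bars at list medians, and the bottom box shows the quartiles of all 11190 genes tested with whiskers at percentiles 5 and 95. Medians are 1.01 for neutrophil, 0.48 for monocyte and macrophage, 0.93 for basophil and mast cell and -1.15 for eosinophil genes, against 0.00 for all genes tested.

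The tested eosinophil genes ran against the 4 transcripts between the MycKO libraries. Of 8 in the list, 5 had a row and 4 passed the filter. All 4 were lower in MycKO 5 than in MycKO 6, while 5585 of all 11190 genes tested were higher in MycKO 5. By at least 1 on the log2(RPKM + 1) scale 3 were lower, against 3.2% of all genes tested. The chemokine receptor gene Ccr3 was at 12 and 32.2 RPKM in MycKO 5 and 6 and 4.81 to 8.83 RPKM in controls. Ear2, a ribonuclease gene that monocytes and macrophages can express too, was at 9.98 and 24.0 RPKM in MycKO and 0.0977 to 2.77 RPKM in controls, and Prg2, the major basic protein gene, at 2.62 and 6.89 RPKM in MycKO and 0 to 0.159 RPKM in controls. Il5ra was at 0.361 and 1.69 RPKM in MycKO and 0.158 to 1.04 RPKM in controls. Siglecf, which did not pass the filter, was at 1.04 and 0.425 RPKM in MycKO and 0 to 0.365 RPKM in controls. It had the order of the 4 transcripts, with a ratio of MycKO 5 to MycKO 6 of 2.45 (1.11 to 5.37) from 15 reads in each. By limma 0 of the 4 were called, with 3 below 0.05 before adjustment, while limma-voom called 1 and the authors' deposited table also called 1. Of all 11190 genes tested, limma called 150, and 1475 were below 0.05 before adjustment. Limma-voom called 232 of the 11190, and the authors' deposited table called 411. Genes with an order of the MycKO libraries opposite to that of Mcpt8 were thus found among both eosinophil and macrophage markers.

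Of the receptors and transcription factors of these lineages, all 20 had a row and 19 passed the filter. Of these, 2 rose and none fell by limma's test, among them Csf1r, whose values are given above. In 11 both MycKO libraries lay above all controls and in 2 below, with a median of 0.96, against 18.8% and 10.4% of all genes tested, so the 2 below were near the background share. The limma background was 1.24% called higher. The count was 1 without control 1, control 3 or MycKO 5. Spi1, which encodes PU.1, was at 42.6 and 18.8 RPKM in MycKO 5 and 6 and 2.21 to 13.5 RPKM in controls (adjusted p = 0.19), with a ratio of 2.26 (1.95 to 2.63). Cebpb was at 18.8 and 12.4 RPKM in MycKO and 3.92 to 14.4 RPKM in controls, and Csf2ra, a receptor chain for GM-CSF, at 23.5 and 11.8 RPKM in MycKO and 3.23 to 9.86 RPKM in controls. Gfi1, a repressor in granulocyte precursors, was at 15.5 and 21.6 RPKM in MycKO and 16.7 to 21.4 RPKM in controls. Of the receptors of extracellular calprotectin, Tlr4 was at 8.01 and 10.5 RPKM in MycKO and 6.02 to 7.62 RPKM in controls, and Ager at 0.834 and 0.716 RPKM in MycKO and 1.75 to 2.82 RPKM in controls, so that Tlr4 lay above and Ager below all controls in both MycKO libraries, without a call by limma for either.

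**Figure D5:**
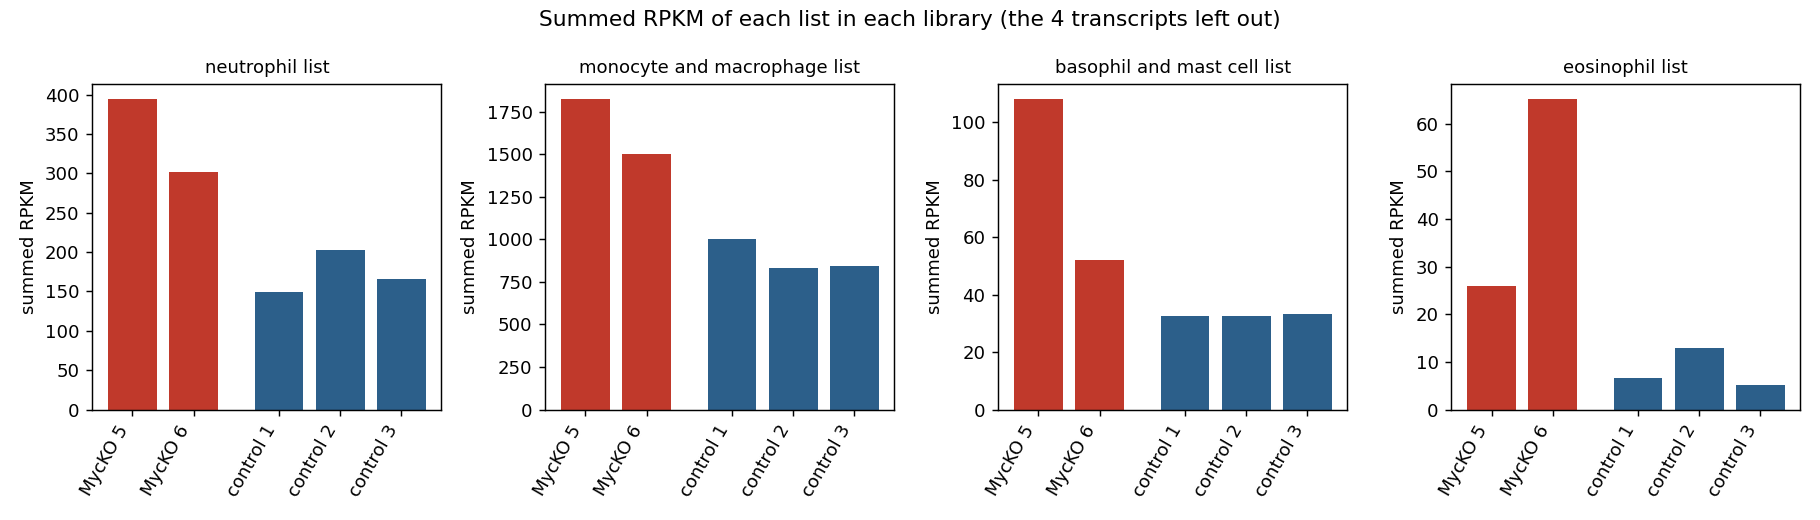
Summed RPKM of the genes of 4 lists in each library, MycKO in red and control in blue, with axes from 0 and a range of its own per list; the 4 transcripts are left out of the sums. Neutrophil genes sum to 394 and 302 RPKM in MycKO 5 and 6 against 149 to 202 RPKM in controls, basophil and mast cell genes to 108 and 51.9 against 32.5 to 33.1, and eosinophil genes to 26.0 and 65.1 against 5.06 to 13.

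The summed levels of the lists kept these orders. Neutrophil genes, without the 4 transcripts, summed to 394 and 302 RPKM in MycKO 5 and 6, against 149, 202 and 165 RPKM in controls 1, 2 and 3. Monocyte and macrophage genes summed to 1825 and 1500 RPKM in MycKO, against 830.0 to 1003 RPKM in controls. Basophil and mast cell genes summed to 108 and 51.9 RPKM in MycKO, against 32.5 to 33.1 RPKM in controls. Without Kit, a sum added after seeing the data, the other 13 genes came to 76.5 and 20.8 RPKM in MycKO 5 and 6, against 19.0 to 20.6 RPKM in controls, so MycKO 6 was close to the controls. Eosinophil genes summed to 26.0 and 65.1 RPKM in MycKO, against 5.06 to 13 RPKM in controls.

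Markers of other spleen cells moved with the 4 transcripts between the groups but not always between the MycKO libraries. T cell markers summed to 123 and 182 RPKM in MycKO 5 and 6 and 16.4 to 34.5 RPKM in controls, with 3 of 8 called higher by limma against 1.24% of all genes tested, a share that also stands beside the counts for the next lists, and Cd3g at 62.0 and 75.9 RPKM in MycKO and 8.14 to 14.3 RPKM in controls. B cell markers summed to 341 and 674 RPKM in MycKO and 87.3 to 138 RPKM in controls, with 1 of 8 called higher, Jchain (232 and 580.1 RPKM in MycKO, 34.8 to 80.2 RPKM in controls). Red cell and platelet markers summed to 211 and 99.2 RPKM in MycKO and 5.20 to 12 RPKM in controls, with 3 of 7 called higher, led by Car1 at 166 and 69.1 RPKM in MycKO and 1.27 to 3.05 RPKM in controls. The 12 NK-defining genes were detected in every library and summed to 10985 and 12853 RPKM in MycKO and 13581 to 15584 RPKM in controls. Gzma alone gave 4699 and 5620 RPKM of these sums in MycKO and 6584 to 7251 RPKM in controls. The MycKO libraries lay below all controls in 6 of the 12 and above in 1, against 10.4% and 18.8% of all genes tested. Of the 12, limma called 0, with 6 below 0.05 before adjustment, against 3 by limma-voom and 4 in the authors' deposited table, none of those 4 higher. Of all 11190 genes tested, limma called 150, and 1475 were below 0.05 before adjustment. Limma-voom called 232 of the 11190, and the authors' deposited table called 65 as lower. The part of these other cells in the levels of the 4 transcripts was not tested.

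The genes with the most similar profile over the 5 libraries were found by the root mean square distance between log2(RPKM + 1) values centred on each gene's mean, among 8177 genes with a mean of at least 5 RPKM. For S100a8 they were the metallothionein gene Mt1 (distance 0.378), Wfdc17 (0.495) and the small RNA gene Snord42a (0.502). For S100a9 they were Plbd1 (0.282), the creatine synthesis gene Gatm (0.283) and Il1b (0.354). For Lyz2 they were Clec7a (0.200), the receptor dectin-1 that binds fungal cell walls, the actin-severing gene Gsn (0.206) and Lyz1 (0.215). For Mcpt8 they were Mt2 (0.510), Mt1 (0.535) and Gatm (0.660). Plbd1 was at 102 and 39.6 RPKM in MycKO 5 and 6 and 8.40 to 14.8 RPKM in controls, and Mt2 at 25.7 and 10.5 RPKM in MycKO and 0 to 0.102 RPKM in controls. The distance between S100a8 and S100a9 was 0.604, so 5 genes were closer to S100a8 than its partner was. Lyz2 and Mcpt8 were the least alike of the 4, at 1.06.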

How the data were processed

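RNA of sorted splenic NK cells from 2 MycKO and 3 control libraries was sequenced as single reads of 51 bases after a dUTP-based strand-specific library preparation, per the labels' protocols. Per the submitters' processing notes, TopHat, edgeR and the mm10 build were used; roles, versions and annotation were not stated, nor whether counting used strand, so overlapping genes are uncertain. The authors deposited 1 table of RPKM values per library, their mean normalized signal per group, a fold ratio, its log2 value, and p-values and adjusted p-values. Sample columns were matched by name.

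Whole reads were worked out from the RPKM values and the deposited group means, and all values (100%) were whole within 0.001 of a read. These gave depth, exact intervals and limma-voom. The lowest chi-square per degree of freedom between any 2 libraries was 17.5, so none was a duplicate. The design had foreseen RPKM, and limma 3.58.1 (R 4.3.3) was fitted to log2(RPKM + 1) over all 5 libraries with a variance trend, on the 11190 genes that reached 1 RPKM in 2 or more libraries. Tests were two-sided, with Benjamini-Hochberg adjustment over all genes and a threshold of 0.05. The log2(RPKM + 1) scale understates changes of low genes. On data simulated for MycKO minus control with 13004 genes, every gene had a dispersion (variance beyond counting error) of 0.05. Calls were made for 24.6% of the genes given a log2 change of 1, for 98.5% at a log2 change of 2, and for 0.162% of genes left as they were. The 4 transcripts varied more, with SDs within groups of 0.81 to 1.09 on the log2(RPKM + 1) scale. The simulated shares therefore do not hold for genes with such a spread. Ngp, with a log2 difference of 3.31, was not called (limma adjusted p = 0.226).

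The 4 genes and 9 gene lists were chosen with earlier results of these data known; the 4 genes were left out of the lists. Named genes were the 5 most abundant and 5 largest called genes of each myeloid list, the most abundant of the others, the 3 nearest profiles and paralogues; others were chosen after their values were seen. A gene that the rule names is not reported here. Promoter windows are from RefSeq (all 4 genes matched), coordinates and transcripts from GENCODE vM21. The labels name no batch. Alternatives were median-of-ratios scaling, a pseudocount of 0.1, no filter, limma-voom and leaving out each library, and, as a choice made after seeing the data, adjusted p-values from the authors' table. Python 3.11.15 with matplotlib 3.10.9 made the figures.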

Additional observations from a re-analysis of the deposited data

How the results depend on the processing

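The differences of S100a8, S100a9 and Lyz2 kept their sign and moved by less than 1 SD under every alternative run. Leaving out 1 library gave 2.50 to 3.82 for S100a8, 1.95 to 3.28 for S100a9 and 0.96 to 2.76 for Lyz2. Mcpt8 was at 6.68 with a pseudocount of 0.1 and 7.36 in limma-voom, against 3.54, since it is set against 0 reads. Without a control it stayed at 3.54 and without a MycKO library it did not pass the filter. Median-of-ratios scaling left the ratios of MycKO 5 to MycKO 6 within their intervals and shifted the median of all genes to -0.0017. Of all genes tested, 150 were called, against 80 with a pseudocount of 0.1, 232 in limma-voom, 411 in the authors' deposited table and 34 to 217 without 1 library. Neutrophil calls were 1 of 26, but 0 with median-of-ratios scaling, 0 with a pseudocount of 0.1 and 0 with no filter. In those fits 12, 12 and 14 neutrophil genes had an unadjusted p under 0.05, against 1476, 1358 and 1707 of all genes tested. Neutrophil calls were 3 in the authors' deposited table and 0 to 5 without 1 control. Monocyte and macrophage calls were 14, against 23 in the authors' deposited table and 4 to 18 without 1 library. Basophil and mast cell calls were 2, against 1 with a pseudocount of 0.1, 1 in limma-voom and 0 to 1 without 1 library. Calls among receptors and regulators were 2, against 5 in the authors' deposited table and 1 to 2 without 1 library. The cause of these shifts was not tested, beyond the fewer libraries. No paired analysis was possible because the groups share no replicate number. Depth limits Mcpt8 most: 42 reads in MycKO 6.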
